A study of Mus musculus with 4 samples.

Results

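The chemokine receptors of monocytes and macrophages described here are 6 genes, Ccr1, Ccr2, Cx3cr1, Cxcr2, Cxcr4 and Ccrl2. They were chosen by symbol and not by a cut on their values, though with earlier results of these data known. They were looked up by Entrez identifier among the 16739 genes with a value in any of 4 RNA-seq libraries. All 6 were found, all 6 passed edgeR's filter on low counts, as did 11302 genes in all, and each had at least 15 expected counts in every library. The libraries were made from tumor-associated macrophages (TAMs), sorted as CD45+CD11b+F4/80+ cells from tumors of B16-F10, a melanoma line of C57BL/6 mice that was injected under the skin of 6- to 8-week-old C57BL/6 mice. The tumors were taken 16 days later.

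2 libraries came from WT mice and 2 from mice labelled Trim24-/-, in which Trim24, the gene of a transcriptional cofactor, was floxed and removed by LysM-Cre, a recombinase driven by the lysozyme M locus that acts in several myeloid cell types and not in macrophages alone. The controls were WT littermates, and the sources used here do not say whether these carried a floxed allele or Cre. Whether a library was made from 1 mouse or from pooled mice is not given either, so the p-values below refer to these libraries only. In edgeR the spread of a gene is estimated partly from other genes. Trim24 transcript did not part the groups (below), so the second group is named by its label, as libraries labelled Trim24-deficient.

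Chemokine receptors are membrane receptors that couple to Gi proteins and guide cells along gradients of small secreted proteins, the chemokines. CCR2 draws classical, Ly6C-high monocytes out of the bone marrow and into inflamed tissue and tumors, where they become macrophages, while CX3CR1, the receptor of CX3CL1, is high on patrolling monocytes and on many tissue macrophages. CCR1 binds CCL3, CCL5 and related CC chemokines, CXCR2 is the main receptor of neutrophils for CXCL1 and CXCL2, CXCR4 binds CXCL12 and holds leukocytes in the bone marrow, and CCRL2 binds the attractant chemerin without the usual chemotactic signal.

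In GRCm38 coordinates, Ccr1 (Entrez gene 12768) lies at chr9:123962126-123968692 on the minus strand, and Ccr2 (12772) lies 133.2 kb further on, at chr9:124101918-124109140 on the plus strand. Cx3cr1 (13051) lies at chr9:120048683-120068296 and Ccrl2 (54199) at chr9:111054834-111057518, both on the minus strand. Of the 24 chemokine receptor genes listed for this work, 15 lie on chromosome 9. The other two of the 6 are on chromosome 1, Cxcr2 (12765) at chr1:74153994-74161246 on the plus strand and Cxcr4 (12767) at chr1:128588199-128592299 on the minus strand. Each has 2 exons in its longest basic GENCODE transcript, and none overlaps another gene. The 250 bases upstream of the annotated start are shown for the pair of receptors with the smallest p-values, Ccr1 and Cx3cr1, and for Cxcr2, which shares a motif with Ccr1. The sequences are from RefSeq on GRCm38.p6, written 5′ to 3′ on the strand of the gene, and capitals mark GAGGAA, the core of sites of the myeloid factor PU.1, or its reverse complement.
Ccr1, chr9:123968693-123968942, minus strand: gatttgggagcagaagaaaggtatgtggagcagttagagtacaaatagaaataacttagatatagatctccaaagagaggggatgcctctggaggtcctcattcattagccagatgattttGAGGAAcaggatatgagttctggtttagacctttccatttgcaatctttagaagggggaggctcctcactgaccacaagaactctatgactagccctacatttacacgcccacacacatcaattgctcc
Cx3cr1, chr9:120068297-120068546, minus strand: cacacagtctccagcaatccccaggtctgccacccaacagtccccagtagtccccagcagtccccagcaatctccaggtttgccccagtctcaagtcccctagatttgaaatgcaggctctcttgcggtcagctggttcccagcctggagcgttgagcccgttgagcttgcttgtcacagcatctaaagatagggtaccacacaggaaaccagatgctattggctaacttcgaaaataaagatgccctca
Cxcr2, chr1:74153744-74153993, plus strand: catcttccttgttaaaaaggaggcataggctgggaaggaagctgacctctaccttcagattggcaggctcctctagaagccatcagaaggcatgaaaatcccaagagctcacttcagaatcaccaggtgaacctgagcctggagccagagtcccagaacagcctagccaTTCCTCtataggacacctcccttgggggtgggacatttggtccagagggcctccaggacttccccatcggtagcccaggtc
The window of Ccr1 holds 43.6% G and C, that of Cx3cr1 53.6% and that of Cxcr2 54.4%. The GAGGAA match begins at position -129 from the start of Ccr1 and, on the opposite strand, at -81 from that of Cxcr2, while the window of Cx3cr1 holds none. Among 32851 promoter windows of 250 bases in the RefSeq table, 23.3% hold this motif on either strand. The letters TTCNNNNGAA, to which STAT6 can bind, are in 5.85% of all windows and the letters TTCNNNGAA of other STAT factors in 7.02%, and neither is in any of the 8 windows of the 6 receptors. ACGTG, the core of hypoxia response elements, is in 16.6% of all windows and in the 3 windows of Ccrl2, one for each annotated start, of which neighbours share bases. These matches describe letters only and show no binding.

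The libraries held 4476122 to 5172407 expected counts, so that 3 counts correspond to 0.606 to 0.639 CPM (counts scaled to a common total by edgeR's TMM method), a floor for counting error only. Replicates were distinct, with chi-square values of 8.57 per degree of freedom between the WT libraries and 19.18 between the others. Against replicates 1 and 2 labelled Trim24-deficient, WT replicate 1 gave 19.15 and 18.91, and WT replicate 2 gave 31.31 and 23.38. The libraries labelled Trim24-deficient thus differed from each other about as much as from WT replicate 1. Trim24 itself, in CPM, was at 5.86 and 2.08 in WT replicates 1 and 2 and at 3.41 and 0.411 in the libraries carrying the Trim24-deficient label, and the groups overlapped (log2 fold change -1.06, standard error 0.82, Benjamini-Hochberg adjusted p = 0.635, edgeR quasi-likelihood test). The values are per gene, so the deleted exons were not seen apart from the rest. In CPM again, WT libraries had 10.9 and 6.46 of the X-linked Xist against 437 and 256 in the others, and 73.7 and 102 of the Y-linked Ddx3y against 0.426 and 0.411. Sex-linked transcripts thus followed the same split as the labels, and genotype and sex cannot be told apart in any comparison below. The defining macrophage transcripts Adgre1 (F4/80) and Csf1r were at 326 to 374 and 337 to 378 FPKM, Itgam (CD11b) at 111 to 236 FPKM and Ptprc (CD45) at 102 to 143 FPKM.

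None of the 6 receptors passed the test between the groups, set at a fold change above 1.5 with an FDR under 0.05. In the same test 42 of 11302 genes were called, which is 0.372%. At an unadjusted p under 0.05 in edgeR there were 4 of the 6 receptors, Ccr1, Ccr2 and Ccrl2 with higher and Cx3cr1 with lower values in the libraries labelled Trim24-deficient, among 1379 such genes in all. DESeq2 called Cx3cr1 alone of the 6, and limma on FPKM called none. Both libraries labelled Trim24-deficient lay above both WT libraries for 3 receptors (Ccr1, Ccr2 and Ccrl2) and below both for Cx3cr1 and Cxcr4, while Cxcr2 overlapped. Over all genes tested, 21.4% were placed in the first way and 23.0% in the second. The median log2 fold change of the 6 was 0.19, against -0.01 over all genes.

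**Figure D1:**
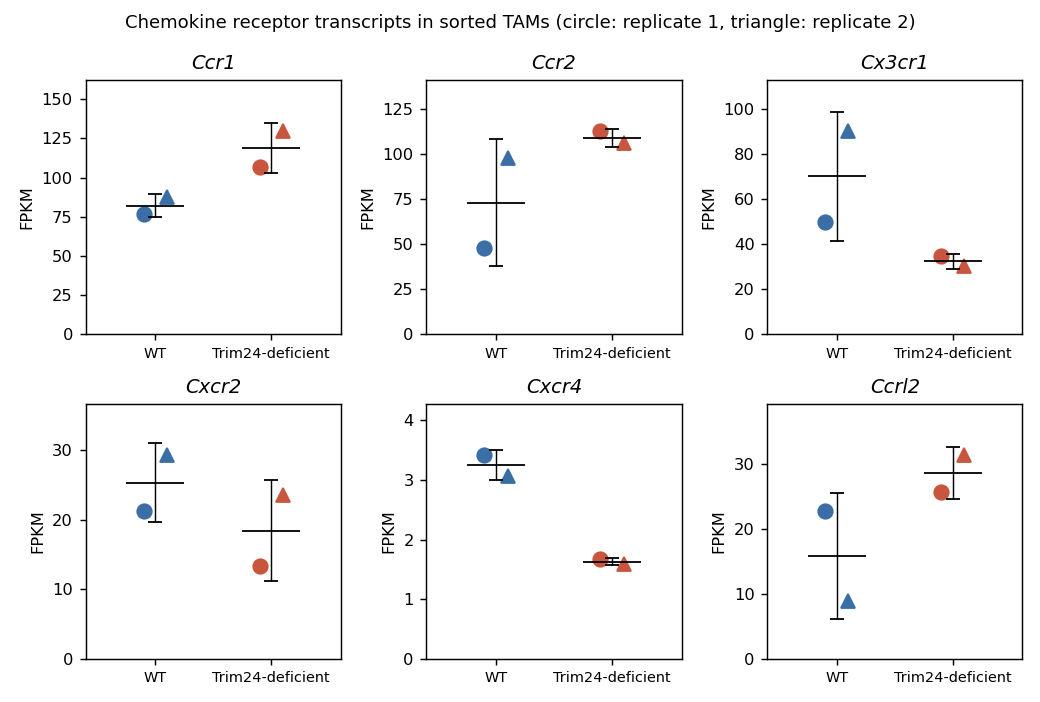
FPKM of each receptor (vertical axes from 0, each with its own range) in 2 WT and 2 Trim24-deficient libraries; points are libraries, long bars are means and error bars are SD (n = 2). Ccr1, Ccr2 and Ccrl2 lie higher and Cx3cr1 and Cxcr4 lower in both libraries labelled Trim24-deficient, and Cxcr2 overlaps.

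Ccr2 had the second highest mean level of the 6 receptors described, 91.2 FPKM over the 4 libraries, above 90.9% of the genes tested by mean FPKM. Its level was 48.1 FPKM in WT replicate 1, 98.1 in WT replicate 2, and 113 and 106 FPKM in replicates 1 and 2 labelled Trim24-deficient. WT replicate 1 stood alone at the low end, WT replicate 2 was close below the other group, and the groups did not overlap. The group means were 73.1 ± 35.3 FPKM in WT and 109 ± 5.02 FPKM in Trim24-deficient libraries (SD, n = 2 each). The log2 fold change was 0.74 (standard error 0.29, 95% interval 0.08 to 1.39, Benjamini-Hochberg adjusted p = 0.356, edgeR quasi-likelihood test). It was 0.35 without WT replicate 1 and 1.30 without WT replicate 2, so the size of the difference rested on which WT library was kept. In bulk RNA, fewer cells of a type and less RNA per cell cannot be told apart.

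Most transcripts listed as marking monocytes were placed by the same split. Of 11 monocyte markers listed and tested, 11 had a log2 fold change above 0 (5580 of 11302 over all genes). Without TMM scaling, Vcan (-0.02) and Fn1 (-0.09) were below 0. For 8, both Trim24-deficient libraries lay above both WT ones (21.4% of all genes tested did), while Vcan, Fn1 and F13a1 overlapped. Called higher were 2 by edgeR (0.372% of all genes were called), 7 by DESeq2 (1.61% of the genes to which it gave an adjusted p) and 0 by limma. One of the calls by edgeR was Hp (haptoglobin, log2 fold change 1.88, edgeR adjusted p = 0.0368, 0.0737 without TMM scaling, and up to 0.121 with 1 library left out, passing in 2 of those 4 fits). Their summed level was 847 and 820.4 FPKM in the WT libraries and 2083 and 1530 FPKM in the others. Ly6c2, which encodes the Ly6C antigen of classical monocytes, was at 228 and 221 FPKM in the WT libraries and at 686 and 324 FPKM in the others, and did not pass the test (edgeR adjusted p = 0.152). The marker sum was nearly equal in both WT libraries, whereas Ccr2 differed 2.04-fold between them. The part of these cells in the Ccr2 level was not tested.

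Ccr1 had the highest mean level of the 6 receptors described, 100.4 FPKM over the 4 libraries, above 91.7% of tested genes by mean FPKM. It was at 76.9 and 87.5 FPKM in WT replicates 1 and 2, and at 107 and 129.9 FPKM in the libraries labelled Trim24-deficient. Both WT libraries were below both of the others, and the gap between the groups, from 87.5 to 107 FPKM, was wider than that between the WT libraries and narrower than that between the others. The means were 82.2 ± 7.46 and 119 ± 16.1 FPKM (SD, n = 2 each), and the log2 fold change was 0.68 (standard error 0.20, 95% interval 0.22 to 1.14). The edgeR quasi-likelihood test gave a Benjamini-Hochberg adjusted p of 0.222. Ccr1 had the narrowest interval of the 6, and the change was between 0.52 and 0.83 whichever library was left out. Without the library labelled Trim24-deficient replicate 1 it passed the test (0.83, edgeR adjusted p = 0.0227), in a fit that called 3.46% of all genes.

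Cx3cr1 went the other way. Its level was 49.9 and 90.2 FPKM in WT replicates 1 and 2, and 34.6 and 30.1 FPKM in the libraries labelled Trim24-deficient. Both of the latter were below both WT libraries, and the WT libraries again stood far apart, by 1.81-fold. The means were 70.0 ± 28.5 and 32.3 ± 3.20 FPKM (SD, n = 2 each). On the log2 scale the change was -0.96 (standard error 0.26, 95% interval -1.55 to -0.37, Benjamini-Hochberg adjusted p = 0.199, edgeR quasi-likelihood test), which is a 1.94-fold lower level. DESeq2, which called 1.61% of the genes to which it gave an adjusted p, called Cx3cr1 (-0.94, adjusted p = 0.0481). With edgeR it passed the test without the library labelled Trim24-deficient replicate 1 (-1.05, adjusted p = 0.0177) and without replicate 2 of that group (-0.87, adjusted p = 0.0467), a fit that called 5.54% of genes. The change was only -0.51 without WT replicate 2 and was -1.29 without WT replicate 1.

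**Figure D2:**
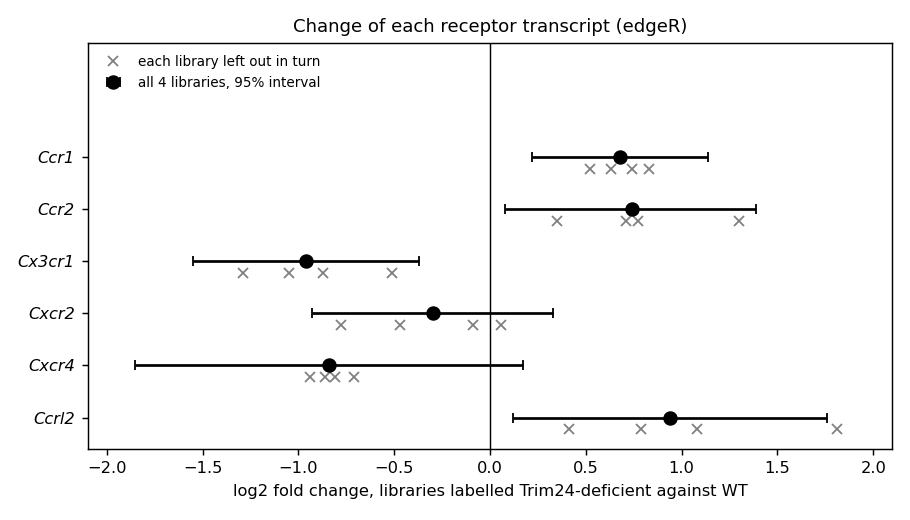
Log2 fold change of each receptor, libraries labelled Trim24-deficient against WT, with its 95% interval (points and bars, edgeR on all 4 libraries) and the value with each library left out in turn (crosses). The intervals of Ccr1, Ccr2, Cx3cr1 and Ccrl2 exclude 0 before adjustment, and for Cxcr2 the crosses run from -0.78 to 0.06.

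Ccr2 and Cx3cr1 were at similar levels in each WT library and far apart in the others. The ratio of Ccr2 to Cx3cr1, both in FPKM, was 0.965 in WT replicate 1 and 1.09 in WT replicate 2, against 3.26 and 3.52 in the libraries labelled Trim24-deficient. Although Ccr2 was 2.04-fold and Cx3cr1 1.81-fold higher in WT replicate 2 than in WT replicate 1, their ratio differed little between these libraries, and the groups did not overlap. The mean log2 ratio was 0.04 ± 0.12 in WT and 1.76 ± 0.08 in the other group (SD, n = 2 each), a difference of 1.72 or 3.3-fold. An exact two-sided permutation test gave p = 0.333, the smallest value that 2 against 2 libraries allow. The ratio was chosen with earlier results of these data known, and it rests on the same values as the levels of the 2 receptors above.

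**Figure D3:**
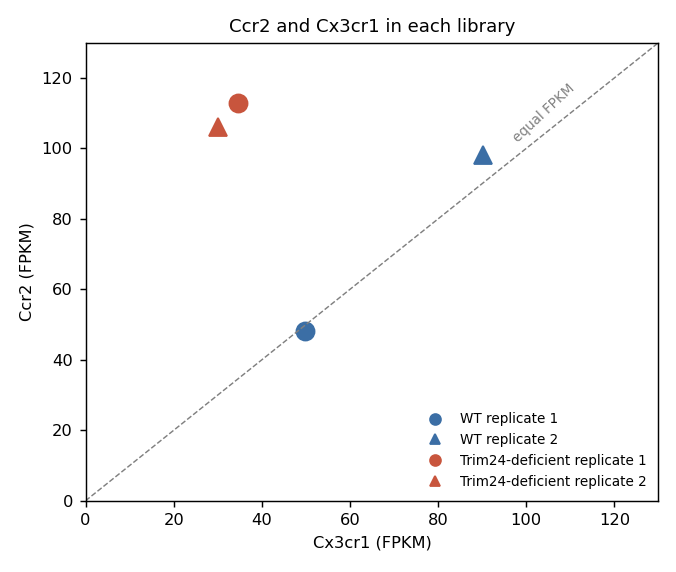
Ccr2 against Cx3cr1, both in FPKM, with 1 point per library and a dashed line where both levels are equal. Both WT libraries lie near the line, with ratios of 0.965 and 1.09, and both libraries labelled Trim24-deficient lie far above it, with ratios of 3.26 and 3.52.

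Cxcr2 was at 21.3 and 29.3 FPKM in WT replicates 1 and 2, and at 13.3 and 23.6 FPKM in the libraries labelled Trim24-deficient. Replicate 1 of the latter was the lowest of the 4, while replicate 2 fell between the WT libraries. The means were 25.3 ± 5.70 and 18.4 ± 7.24 FPKM (SD, n = 2 each), and the log2 fold change was -0.30 (standard error 0.28, 95% interval -0.93 to 0.33, Benjamini-Hochberg adjusted p = 0.706, edgeR quasi-likelihood test). Replicates of a group differed by more than the group means did. The direction hung on 1 library, since the change was 0.06 without the library labelled Trim24-deficient replicate 1, and -0.78 without replicate 2. Only in the latter fit did Cxcr2 pass the test, with 1 library left in that group, whose own spread could not be seen.

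Other transcripts of neutrophils, the cells best known for this receptor, were placed differently. Of 17 neutrophil markers listed, 9 were tested and none was called by edgeR or limma. At an unadjusted p under 0.05 in edgeR there were 8 (1379 of 11302 over all genes). DESeq2 called 5 (1.61% of the genes to which it gave an adjusted p). For 8 of the 9, both Trim24-deficient libraries exceeded both WT libraries (21.4% of all genes tested did), and the median log2 fold change was 1.77. The list summed to 106 and 113 FPKM in the WT libraries and to 212 and 531 FPKM in the others, highest in replicate 2. Most of this sum came from S100a8 and S100a9, the latter at 13.4 and 19.7 FPKM in the WT libraries and 35.8 and 82.5 FPKM in the others. S100a8, a calcium-binding protein of neutrophils and monocytes, was at 49.1 and 46.1 FPKM in the WT libraries and at 92.3 and 305 FPKM in the others. Csf3r, the receptor of the growth factor G-CSF, was at 23.3 and 26.3 FPKM in the WT libraries and at 41.0 and 37.9 FPKM in the others. Ly6g, the antigen that defines mouse neutrophils, was listed at 0 in both WT libraries and at 2.11 and 0.95 FPKM in the others. The latter values rest on 9.41 and 4.47 expected counts, and Ly6g was not tested. The granule genes Mpo and Elane had no value in any library. Camp and Ngp, with at most 3 counts in a library, were not tested, and the groups overlapped for Mmp9. The part of neutrophils in the Cxcr2 level was not tested.

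Ccrl2 was at 22.7 and 8.92 FPKM in WT replicates 1 and 2, and at 25.7 and 31.4 FPKM in the libraries labelled Trim24-deficient. WT replicate 2 stood alone at the low end, and WT replicate 1 was just below the other group. The means were 15.8 ± 9.72 and 28.6 ± 4.03 FPKM (SD, n = 2 each), and the log2 fold change was 0.94 (standard error 0.37, 95% interval 0.12 to 1.76, Benjamini-Hochberg adjusted p = 0.346, edgeR quasi-likelihood test). The gap between the WT libraries, 2.54-fold, was larger than the 1.92-fold change between the groups. Without WT replicate 1 the change was 1.81, and without WT replicate 2 it was 0.41. Without the library labelled Trim24-deficient replicate 1 the change was 1.08. Ccrl2 passed the test in this fit and in that without WT replicate 1, each with 1 library left in a group.

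Cxcr4 was the least abundant of the 6, at 3.42 and 3.07 FPKM in the WT libraries and at 1.67 and 1.59 FPKM in the libraries labelled Trim24-deficient. The replicates of each group were close together and the groups did not overlap. The counts behind these values were 30 and 25 in the WT libraries and 15 and 15 in the others, and the 95% Poisson intervals, 20.2 to 42.8 and 16.2 to 36.9 against 8.4 to 24.7, overlapped. These intervals are each of 1 library and on unscaled counts, so their overlap is not a test of a difference between libraries. The means were 3.25 ± 0.247 and 1.63 ± 0.0566 FPKM (SD, n = 2 each), and the change was -0.84 on the log2 scale (standard error 0.45, 95% interval -1.85 to 0.17, Benjamini-Hochberg adjusted p = 0.476, edgeR quasi-likelihood test).

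Set in order of mean FPKM, which is scaled to transcript length, the receptors ran from Ccr1 (100.4) and Ccr2 (91.2) over Cx3cr1 (51.2), Ccrl2 (22.2) and Cxcr2 (21.9) to Cxcr4 (2.44). The ranges over the 4 libraries overlapped for each pair of neighbours in this order except Cxcr2 and Cxcr4. Ccr1 exceeded Ccr2 in 2 of 4 libraries, Ccr2 exceeded Cx3cr1 in 3, and Cxcr2 exceeded Cxcr4 in all 4. Cx3cr1 made up 22.4% and 28.4% of the summed FPKM of the 6 in the WT libraries and 11.7% and 9.33% in the others. The share of Ccr1 was 34.6% and 27.6% against 36.3% and 40.3%. Set against Csf1r in the same library, Ccr1 was at 22.3% and 23.1% of its FPKM in the WT libraries and at 31.8% and 34.4% in the others. Cx3cr1 was at 14.5% and 23.8% of Csf1r in the WT libraries and at 10.3% and 7.97% in the others, so the placing of the libraries was the same on this scale. RSEM gave Ccr2 and Cxcr2 a fractional count in all 4 libraries and Cx3cr1 in 3, as it does for reads that also match elsewhere, and their levels are uncertain to that extent, since the tables do not show with which genes reads were shared.

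Of 18 other chemokine receptors, 16 had a value and 6 were tested. None was called by edgeR (0.372% of all genes were called), with 1 at an unadjusted p under 0.05 (1379 of 11302 over all genes). None was called by DESeq2 (1.61% of the genes to which it gave an adjusted p) or limma. The median log2 fold change of the 6 tested was 0.55, against -0.01 over all genes. Cxcr6, a receptor of T cells, was at 20.2 FPKM in the library labelled Trim24-deficient replicate 1 and at 6.42 to 8.76 FPKM in the rest. Without the library labelled Trim24-deficient replicate 2, the log2 fold change of Cxcr6 was 1.42. T and NK cell markers summed to 297 FPKM in replicate 1, against 85.7 to 151 FPKM in the other libraries, and their part in the Cxcr6 level was not tested. Ccr7, which leads dendritic cells to lymph nodes, was at 4.06 to 8.30 FPKM, and Cxcr3, the receptor of interferon-induced chemokines, at 3.55 to 7.36 FPKM, with overlapping groups for both.

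**Figure D4:**
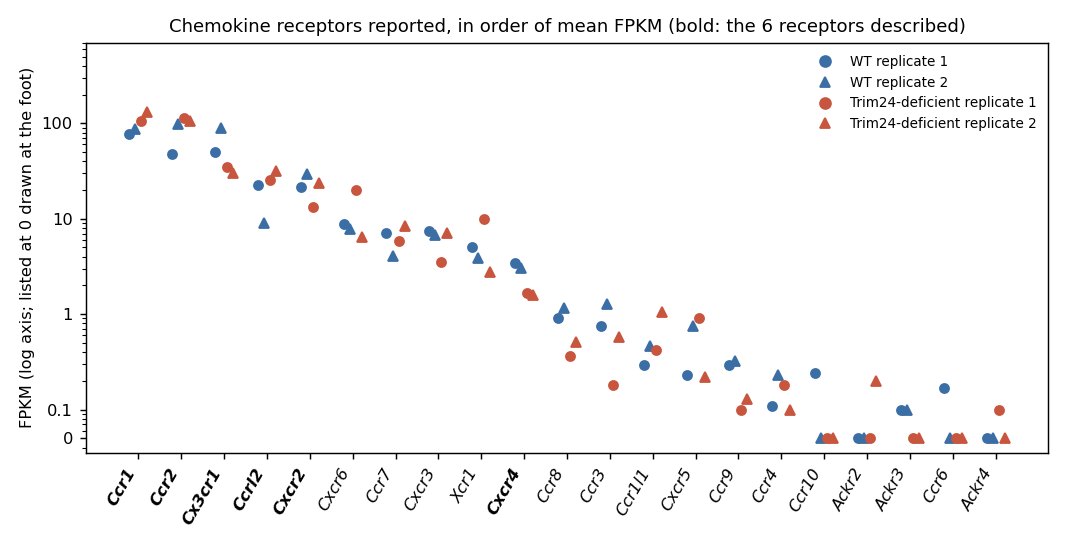
FPKM (log axis, values listed at 0 drawn at the foot) of the 21 chemokine receptors reported here, in order of mean FPKM, with 1 point per library and the 6 receptors described in bold. Among those drawn, Ccr1, Ccr2 and Cx3cr1 have the highest means, and 10 receptors, Cxcr4 last among them, lie above 1 FPKM in all 4 libraries.

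Transcripts of many ligands of the 6 receptors were present in the sorted cells. All 18 listed had a value and 13 were tested, of which 11 had a log2 fold change above 0 (5580 of 11302 over all genes), with a median of 0.63. For 8, both libraries labelled Trim24-deficient lay above both WT libraries and for 0 below (21.4% and 23.0% of all genes tested). None was called by edgeR, with 8 at an unadjusted p under 0.05 (1379 of 11302 over all genes). DESeq2 called 1 (1.61% of the genes to which it gave an adjusted p) and limma none. The one called by DESeq2 was Ccl6, a CC chemokine that binds CCR1, and it is named after its values were seen. It was at 736 and 452 FPKM in the WT libraries and at 1381 and 1693 FPKM in the others, with no overlap (log2 fold change 1.51, standard error 0.29, Benjamini-Hochberg adjusted p = 0.0759, edgeR quasi-likelihood test). The edgeR fit without the filter on low counts called it too (1.52, adjusted p = 0.0439). With 1 library left out, its change was 1.18 to 1.96.

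The CCR2 ligands were among the most abundant transcripts of the list. Ccl2 was at 1646 and 1719 FPKM in the WT libraries and at 1429.6 and 1777 FPKM in the others, and Ccl12 at 1224 and 1388 against 1027 and 1866 FPKM. For both of these genes the groups overlapped, with log2 fold changes of 0.08 and 0.30. Ccl7 was at 1689.8 and 1771 FPKM in the WT libraries and at 2125 and 2483 FPKM in the others (0.56, Benjamini-Hochberg adjusted p = 0.349, edgeR quasi-likelihood test). Ccl8, which also binds CCR2, was at 1800.1 and 1066 against 1990.4 and 2390.2 FPKM (0.75, edgeR adjusted p = 0.332). Ccl3, a ligand of CCR1, was at 150.1 and 109 FPKM in the WT libraries and at 194 and 173 FPKM in the others (0.64, edgeR adjusted p = 0.267). For Ccl7, Ccl8 and Ccl3 the groups did not overlap, and none of these changes passed the test without a replicate block on all 4 libraries. The change of Ccl3 was 0.72 without the library labelled Trim24-deficient replicate 2.

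The neutrophil attractants that bind CXCR2 differed among themselves. Cxcl2 was at 46.8 and 52.0 FPKM in the WT libraries and at 33.9 and 72.9 FPKM in the others, and Cxcl1 at 12.3 and 6.61 against 3.65 and 7.55 FPKM, with overlapping groups for both. Cxcl3, named after its values were seen, was at 4.92 and 4.53 FPKM in the WT libraries and at 8.31 and 16.5 FPKM in the others, with no overlap (log2 fold change 1.55, standard error 0.42, Benjamini-Hochberg adjusted p = 0.199, edgeR quasi-likelihood test). Its log2 fold change was 1.97 without the library labelled Trim24-deficient replicate 1. The ligand of CXCR4, Cxcl12, had 2, 7, 6 and 2 counts in WT replicates 1 and 2 and in replicates 1 and 2 labelled Trim24-deficient. Cx3cl1, the ligand of CX3CR1, had 3 and 2 counts in the WT libraries and was listed at 0 in the others. Both were too low to be tested, and the sorted cells do not show what other cells of the tumor made.

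The 25 genes of the signalling chain behind these receptors went both ways. All 25 were tested, with log2 fold changes from -0.64 to 1.59, 12 above and 13 below 0. Both libraries labelled Trim24-deficient lay above both WT libraries for 4 genes and below for 5 (21.4% and 23.0% of all genes tested). At the threshold edgeR called none (0.372% of all genes were called), with 1 at an unadjusted p under 0.05 (1379 of 11302 over all genes). DESeq2 (1.61% of the genes to which it gave an adjusted p) and limma called none either. The median log2 fold change was 0.00. Gnai2, the Gi alpha subunit that is abundant in leukocytes, was the one with the low p, at 111 and 158 FPKM in the WT libraries and at 71.2 and 83.6 FPKM in the others (-0.64, standard error 0.22, Benjamini-Hochberg adjusted p = 0.278, edgeR quasi-likelihood test). Gnb1, a G protein beta subunit, was at 155 to 185 FPKM, Rgs19, which speeds up the shutdown of Gi, at 90.7 to 113 FPKM, and Rac2, a GTPase that drives leukocyte movement, at 131 to 207 FPKM. Their log2 fold changes were 0.06, 0.18 and 0.50, and none passed the test (edgeR adjusted p = 0.936, 0.738 and 0.413).

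The levels of the other marker lists give the setting of these values. Macrophage markers summed to 16838 to 21131 FPKM, with a median log2 fold change of 0.10. Of the 14, edgeR called 0 (0.372% of all genes were called), with 2 at an unadjusted p under 0.05 (1379 of 11302 over all genes). DESeq2 called 0 (1.61% of the genes to which it gave an adjusted p) and limma 0. Dendritic cell markers summed to 47.8 to 61.2 FPKM and B cell markers to 38.8 to 45.7 FPKM, most of the latter from Cd79b. Melanoma markers were higher in the WT libraries, at 268 and 254 FPKM, than in the others, at 163 and 219 FPKM. Besides macrophage markers, monocyte markers were the most abundant list in every library, and the monocyte and neutrophil lists were those where the libraries labelled Trim24-deficient exceeded both WT libraries by the widest margins.

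**Figure D5:**
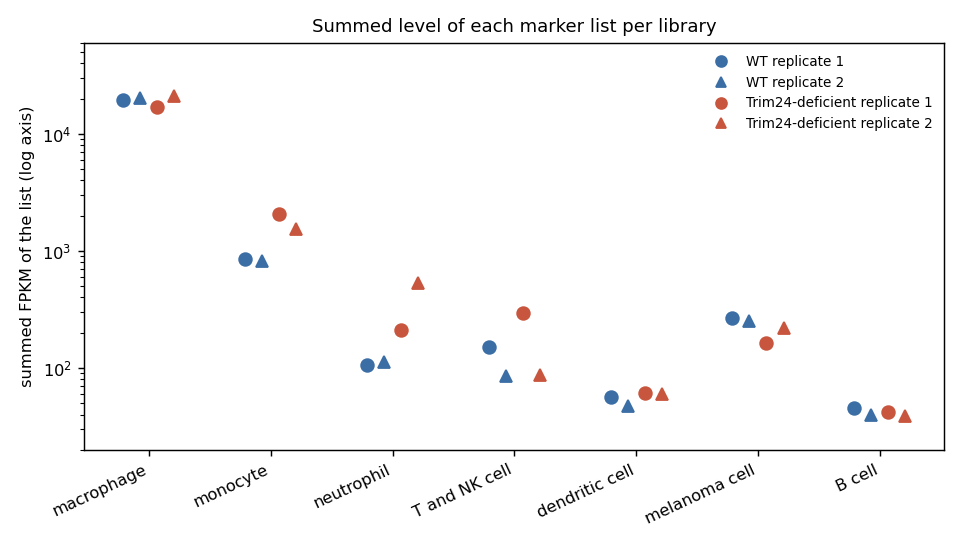
Summed FPKM (log axis) of marker lists of 7 cell types, with 1 point per library. Macrophage markers lie between 16838 and 21131 FPKM in all 4 libraries, while the monocyte and neutrophil sums are higher in both libraries labelled Trim24-deficient, and the T and NK cell sum is highest in 1 of them, at 297 FPKM.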

How the data were processed

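RNA-seq of sorted TAMs in 2 WT and 2 Trim24-deficient libraries was analysed, with groups and replicate numbers taken from the sample labels. The authors used Bowtie and RSEM with the mouse genome GRCm38 (mm10) and deposited, for each gene, an expected count that is not normalized and not always whole (76.61% to 77.67% were). The authors also deposited FPKM values, scaled to transcript length and library total, and a transcript length, used only for position notes. Versions of these tools are not given in the sources used here. A gene missing from a table was set to 0. Of 16739 genes, 16698 matched a symbol.

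Expected counts were rounded and analysed with edgeR 4.0.16 in R 4.3.3. After filterByExpr, libraries were scaled by TMM (factors 1.03, 1.08, 0.957 and 0.943) and tested with glmQLFit and glmQLFTest over all genes, and calls needed a fold change over 1.5 with an FDR under 0.05, the limits in the methods of the study. Standard errors are log2 fold changes over the root of their F values. In the main fit the spread of each gene was drawn toward that of other genes (median prior degrees of freedom 7.41). Its standard errors, intervals and p-values thus do not reflect the gene's own 4 values alone. Library totals were 4817292 and 4476122 counts in WT and 4917063 and 5172407 in Trim24-deficient libraries. Alternatives were DESeq2 1.42.0, limma 3.58.1 with pseudocounts of 1 and 0.1 on the log2 FPKM scale for genes with at least 1 FPKM in 2 libraries, other scalings and filters, the replicate number as a block, and each library left out. limma tests log2 values made from the deposited FPKM. The scripts were tested on simulated data.

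The receptors and all lists were chosen with earlier results of these data known, and serve as descriptions. Named were the 6 receptors, from each list of receptors, ligands and signalling genes every called gene and the 4 with the highest mean FPKM, a few set in advance (Ccr7, Cxcr3, Cxcr6, Ccl2, Ccl3, Cxcl1, Cxcl2 and Cxcl12), defining markers, Trim24, Xist and Ddx3y, and for each receptor the 2 genes nearest in pattern. Other names were chosen after their values were seen. A further receptor and a further monocyte marker counted in their lists are not reported here. Amino acid sequences were not used here.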

Additional observations from a re-analysis of the deposited data

How the results depend on the processing

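Each of the 6 receptors kept its direction under each of the 12 alternatives apart from Cxcr2, whose log2 fold change ran from -0.78 to 0.06 in the fits with 1 library left out and was 0.06 without the library labelled Trim24-deficient replicate 1. Of the 72 pairs of a receptor and an alternative, 60 kept direction and side of the threshold, 11 passed it only in the alternative and 1 reversed. The cause was not tested. The difference in the log2 ratio of Ccr2 to Cx3cr1, 1.72, was 1.64 to 1.81 with 1 library left out. edgeR called 42 genes, DESeq2 165, limma on log2(FPKM + 1) 24, and fits with 1 library left out 25 to 652, where a group of 1 library is assumed to vary like the other. Of the calls, 78.6% were higher in edgeR, against 45.8% and 35.5% in limma with a pseudocount of 1 and 0.1. Without TMM the median of all genes was -0.15, and the receptors, in the order Ccr1, Ccr2, Cx3cr1, Cxcr2, Cxcr4 and Ccrl2, had log2 fold changes of 0.53, 0.58, -1.12, -0.46, -0.99 and 0.80.

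DESeq2 called 1 receptor, and the fits with 1 library left out 0 to 3. In the latter, 0 to 3 other chemokine receptors were called (Cxcr6 and Xcr1 among them, without the library labelled Trim24-deficient replicate 2), 0 to 5 ligands (Ccl3, Ccl4, Ccl5, Ccl6 and Ppbp in that same fit) and 0 to 1 signalling genes (Rgs1 or Rgs16). Among ligands, DESeq2 and the fit without a filter on low counts each called 1, Ccl6. Both groups carry replicate numbers 1 and 2, and deviations of same-numbered libraries from their group means correlated at 0.165 across genes, which are not independent replicates. The labels do not say that a number marks a shared litter or day, so the main fit has no block. With the replicate number as a block, edgeR called 634 genes, 4 receptors (Ccr1, Ccr2, Cx3cr1 and Ccrl2), 0 other receptors, 7 ligands (Ccl3, Ccl4, Ccl5, Ccl6, Ccl8, Ccl9 and Cxcl3) and 1 signalling gene (Gnai2), in a fit whose spread came from all genes together and not from the gene tested. With 2 libraries per group, the exact permutation test cannot go below p = 0.333. Cxcr4 had 15 to 30 counts, while the other receptors had 82 counts or more. The counting intervals of Cxcr4, each of 1 library and on unscaled counts, overlapped between the groups, which is not a test of a difference.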

Other observations

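For each receptor, the genes nearest in pattern over the 4 libraries were found among 7428 genes whose log2 CPM averaged 4 or more (7429 for Cxcr4, itself below that level), by the Euclidean distance of centred log2 CPM. With 4 libraries many genes lie close together, so these are descriptions with no test. Nearest to Ccr1 were Emb, which encodes the adhesion protein embigin (distance 0.074), and Thoc6, a part of an mRNA export complex (0.0769). In CPM, Emb was at 109 and 113 in WT libraries against 161 and 205 in those labelled Trim24-deficient. For Cx3cr1 the nearest were Pabpn1 (0.137) and Poc1b (0.154), and Pabpn1, a poly(A)-binding protein, had 18.4 and 29.4 CPM in WT against 14.3 and 11.9 CPM in the others. Ccr2 was followed by Ap5b1 (0.201) and Ifit1bl1 (0.238), and Cxcr2 by Gm15645 (0.0656) and Zfp422 (0.0872). Cxcr4 had Sord, sorbitol dehydrogenase (0.0676), and Nusap1, a protein of the mitotic spindle (0.0716), as neighbours. The latter had 51.3 and 44.8 CPM in WT against 27.5 and 28.6 CPM in the others. The least close neighbours were those of Ccrl2, Csrnp1 (0.325) and St7 (0.36). None of these neighbours was called by edgeR.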
